A study of Rattus norvegicus with 6 samples.

Results

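The genes described here are 10 genes that mark astrocytes and their reactive state, Gfap, Vim, Aqp4, Slc1a2, Slc1a3, Gja1, Gjb6, Serpina3n, Lcn2 and Cd44, in the spinal cord of rats with bone cancer pain (BCP). A row of the deposited gene table was taken as a member when its gene name equalled one of these symbols. Of the 10 genes, 9 had a row among the 30957 listed, and Serpina3n had none, either by that name or by its 5 RefSeq synonyms. The members were chosen from their known roles and with their counts in these libraries known, among them the count of Aqp4 that was high in 1 BCP library. Their differences between sham-operated and BCP rats are therefore given as a description and carry no test.

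The tissue was the ipsilateral side of the lumbar enlargement with the meninges removed, taken on day 14 from female Wistar rats. BCP rats carried living Walker 256 cells, a rat mammary carcinoma line syngeneic to this strain, in the medullary cavity of the left tibia, and sham-operated rats received the same line after heat killing. Each group had 3 libraries, prepared as stranded total RNA after removal of ribosomal RNA. Rats without surgery were not analysed here, and both groups shared the puncture of the bone and the exposure to tumor cell material. Gene counts per library ranged from 11779485 to 15004290. Library totals of this size left counting error small for every member except Lcn2, and that error does not cover PCR duplicates. The labels do not state that the libraries came from separate rats, so the p-values measure the spread between these libraries. In bulk tissue, a change in the number of cells of a type cannot be told apart from a change in RNA per cell.

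Astrocytes take up glutamate from synapses, buffer potassium and water at their endfeet on blood vessels, and are joined to each other by gap junctions. After injury or inflammation of the nervous system they enter a reactive state, in which the intermediate filaments Gfap and Vim, surface receptors and secreted proteins increase, while transporters and channels may be lost. Spinal astrocytes are widely studied in chronic pain because glutamate uptake and gap junctions shape the excitability of dorsal horn neurons.

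Among the 9 members with a row, filament genes and the hyaluronan receptor Cd44 were higher in BCP rats, the glutamate transporter Slc1a2 and the connexin Gjb6 were lower, and the connexin Gja1 lay at the same level in both groups. Aqp4 was high in BCP library 1 alone and Slc1a3 was low in sham library 1 alone. All 9 passed the filter on low counts, as did 14908 genes in total. By edgeR's quasi-likelihood test across those genes, 3 members were past an adjusted p of 0.05 in the direction of higher counts in BCP rats (Gfap, Vim and Cd44), where 15.8% of all genes tested were. In the lower direction 2 members were past it (Slc1a2 and Gjb6), against 12.1% of all genes. Vim and Cd44 were also past 2-fold, as were 6.35% of all genes in the higher direction, and 0.107% of all genes were past 2-fold in the lower direction. Without overlap between the groups, 5 members were higher in BCP rats (Gfap, Vim, Slc1a3, Lcn2 and Cd44), against 21.7% of all genes, and 2 were lower (Slc1a2 and Gjb6), against 19.8%. The median log2 fold change was 0.80 over the 9 members, 0.73 over the 8 without Aqp4 and -0.014 over all genes tested. Since the rule used this contrast, nothing is read from these counts.

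**Figure D1:**
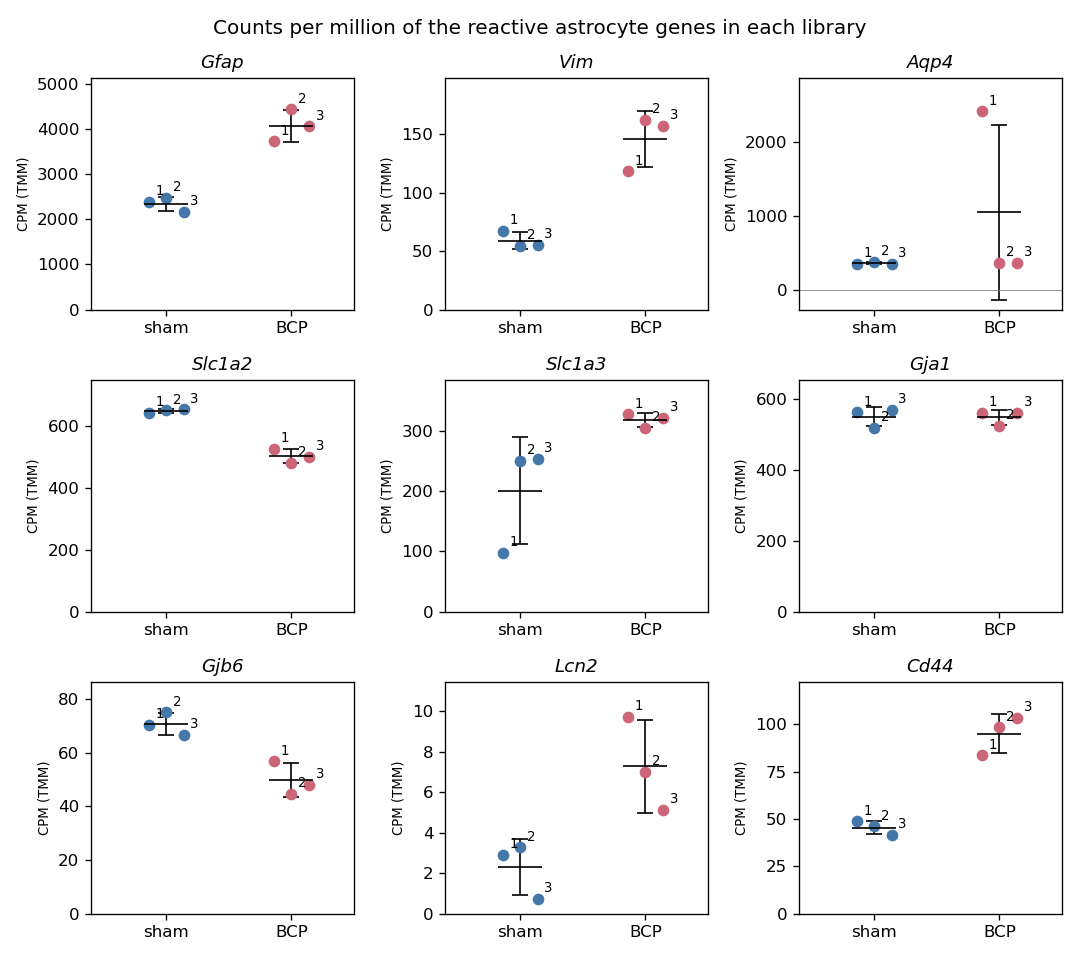
Each panel plots CPM of 1 gene, each count relative to the TMM-scaled total of its library, on an axis including 0, in the 3 sham and 3 BCP libraries, with the library number beside each point, the mean as a bar and the SD as whiskers. BCP library 1 stands at 2413 CPM for Aqp4 and sham library 1 at 98.0 CPM for Slc1a3, both apart from the other libraries.

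The promoters of Gfap, Vim and Cd44, the members that were higher in BCP rats and past the threshold, are shown because these genes differed in the same direction. The sequences are from RefSeq, build GRCr8, and run from 250 bases before to 50 bases after the annotated start, 5′ to 3′ on the strand of the gene. They lie at chr10:88361612-88361911 on the minus strand for Gfap, at chr17:81577011-81577310 on the plus strand for Vim and at chr3:109699375-109699674 on the minus strand for Cd44. Capitals mark the matches found.
Gfap: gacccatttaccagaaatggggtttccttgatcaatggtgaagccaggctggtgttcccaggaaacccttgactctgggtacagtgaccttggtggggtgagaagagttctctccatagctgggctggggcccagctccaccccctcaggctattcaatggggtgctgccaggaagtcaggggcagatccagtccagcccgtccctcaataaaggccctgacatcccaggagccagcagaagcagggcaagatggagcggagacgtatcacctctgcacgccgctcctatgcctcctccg
Vim: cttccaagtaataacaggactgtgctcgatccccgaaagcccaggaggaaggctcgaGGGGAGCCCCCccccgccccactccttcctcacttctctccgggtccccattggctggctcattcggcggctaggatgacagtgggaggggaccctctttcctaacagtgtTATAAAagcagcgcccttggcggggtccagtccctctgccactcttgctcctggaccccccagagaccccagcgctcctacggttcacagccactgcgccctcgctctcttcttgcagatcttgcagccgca
Cd44: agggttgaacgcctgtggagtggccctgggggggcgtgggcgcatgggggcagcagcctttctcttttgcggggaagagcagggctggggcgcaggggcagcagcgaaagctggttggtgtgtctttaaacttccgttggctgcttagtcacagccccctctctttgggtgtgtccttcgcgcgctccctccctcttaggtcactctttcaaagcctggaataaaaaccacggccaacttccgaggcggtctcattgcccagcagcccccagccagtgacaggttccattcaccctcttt

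These windows and those of the other 7 members were searched on both strands for a STAT motif (TTCNNNGAA), an AP-1 motif (TGANTCA), the NF-kappa-B consensus and a TATA motif (TATAAA). Vim held an overlapping pair of NF-kappa-B matches starting at positions -193 and -192 from the annotated start and a TATA match at -82. Over all 33469 promoters of the table, 5.02% held an NF-kappa-B match and 14.2% a TATA match. None of these letters were found in the windows of Gfap and Cd44. A STAT match stood at -123 of Serpina3n and an AP-1 match at -58 of Gja1, where 8.87% and 7.33% of all promoters held one. A match is a run of letters and was not tested as a binding site.

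Gfap (ENSRNOG00000002919, chromosome 10, 90990762 to 90999435 in Rnor_6.0) encodes glial fibrillary acidic protein, the main intermediate filament of astrocytes. Its level was 2381, 2467 and 2161 CPM in sham rats and 3725, 4435 and 4053 CPM in BCP rats, here and throughout in the order of libraries 1, 2 and 3. All BCP libraries lay above all sham libraries, and the log2 fold change was 0.80 (SE 0.07), or 1.74-fold. Vim (ENSRNOG00000018087, chromosome 17, 80882666 to 80891212) encodes vimentin, the filament protein that assembles with Gfap in reactive astrocytes and that endothelial cells and microglia also make. It stood at 67.2, 54.6 and 55.2 CPM in sham rats and at 118, 162 and 157 CPM in BCP rats, again without overlap. Its log2 fold change was 1.31 (SE 0.16), and Vim missed the threshold with the replicate number as a block (edgeR adjusted p = 0.0608). BCP library 1 was the lowest of the BCP libraries for both filament genes. On the deposited FPKM values, which are per length, the ratio of Gfap to Vim was 24.5, 31.2 and 27.0 in sham rats and 21.8, 18.9 and 17.8 in BCP rats.

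Of 6 genes listed with the filaments, 5 had a row and were tested, and Nes had none. Fabp7, the fatty acid binding protein of radial glia and of some astrocytes, rose from 60.9, 55.1 and 57.7 CPM to 115, 124 and 121 CPM (log2 fold change 1.05, SE 0.06, edgeR adjusted p = 3.26e-11). Plec, the cytoskeletal linker plectin, fell by 0.15 on the log2 scale (adjusted p = 0.0116), and that call was lost when counts were scaled by library size alone and without sham library 2 or BCP library 3. The median log2 fold change of the list was 0.10. Fabp7, which is no filament protein and was also listed under astrocyte identity, was the only gene of this list called higher.

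Slc1a2 (ENSRNOG00000005479, chromosome 3, 92640752 to 92665644) encodes GLT-1, the glutamate transporter that clears most synaptic glutamate. It measured 641, 651 and 654 CPM in sham rats and 526, 481 and 500 CPM in BCP rats. Every BCP library was below every sham library, with a log2 fold change of -0.37 (SE 0.04), so the level decreased by 22.6%. Slc1a3 (ENSRNOG00000016163, chromosome 2, 57860834 to 57935363) encodes GLAST, the other glutamate transporter of astrocytes. It measured 98.0, 251 and 254 CPM in sham rats and 328, 306 and 322 CPM in BCP rats. The groups did not overlap, but sham library 1, with 1286 counts against 3593 and 3767 in the other sham libraries, lay 2.98-fold below the mean of the other 5 libraries. The log2 fold change was 0.66 (SE 0.41) with that library and 0.33 without it. The smaller value was past the threshold (edgeR adjusted p = 7.29e-05), whereas the value with all libraries was not (adjusted p = 0.343). The estimates of the 2 glutamate transporters lay on opposite sides of 0, although the interval of Slc1a3 with all libraries included 0. The FPKM ratio of Slc1a2 to Slc1a3 was 48.5, 19.3 and 19.1 in sham rats and 11.9, 11.7 and 11.5 in BCP rats. The deposited FPKM of Slc1a2 corresponds to a length of 882 bp and that of Slc1a3 to 6539 bp, and the ratio rests on these lengths. In GRCr8 the annotated starts of Slc1a2 lie farther from the start of Cd44 than the first base of the Slc1a2 row does in Rnor_6.0. The row may therefore lack the first part of the gene, which was not tested. The CPM and FPKM of Slc1a2 are levels of that row.

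All 10 genes of a list on glutamate and glutamine handling were tested. Slc1a4, a transporter of neutral amino acids, rose (log2 fold change 0.37, SE 0.07, edgeR adjusted p = 0.000244). Glud1, glutamate dehydrogenase, fell by 0.25 on the log2 scale (adjusted p = 0.000209). Slc38a2, a glutamine transporter, fell by 0.12 (adjusted p = 0.0381), and kept the call in 4 of 12 alternative fits, losing it when any 1 library but sham library 2 was left out. In all 3 genes of the list were lower. Scaling by library size alone left 1 of these 3 lower calls, and leaving out sham library 3 also left 1. The median log2 fold change of the list was -0.099. Glul, glutamine synthetase, which turns captured glutamate into glutamine, did not pass the test, with 2221, 2111 and 2143 CPM in sham rats and 2199, 2002 and 2162 CPM in BCP rats.

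**Figure D2:**
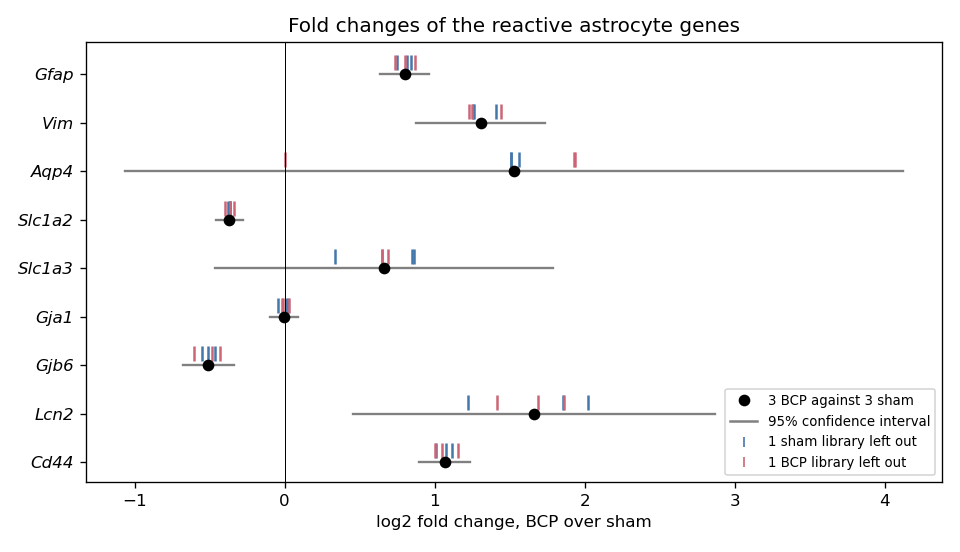
Points give the log2 fold change of each member, BCP over sham, with the 95% confidence interval as a line, and ticks above give the value with 1 library left out (blue, a sham library; red, a BCP library). Aqp4 moves to 0.0016 without BCP library 1, and Slc1a3 moves to 0.33 without sham library 1. The ticks of Gfap stay between 0.74 and 0.87 and those of Cd44 between 1.01 and 1.16.

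Gja1 (ENSRNOG00000000805, chromosome 20, 37876650 to 37889089) encodes connexin 43 and Gjb6 (ENSRNOG00000022116, chromosome 15, 37400889 to 37410848) connexin 30, the channel proteins of astrocytic gap junctions. Gja1 measured 563, 520 and 570 CPM in sham rats and 562, 526 and 561 CPM in BCP rats. The groups overlapped, and the 95% interval of the log2 fold change ran from -0.10 to 0.091. Gjb6 measured 70.4, 75.0 and 66.5 CPM in sham rats and 56.7, 44.6 and 48.0 CPM in BCP rats. All BCP libraries were below the sham libraries, and the log2 fold change was -0.51 (SE 0.08), so the level decreased by 29.7%. The FPKM ratio of Gja1 to Gjb6 was 8.36, 7.25 and 8.96 in sham rats and 10.4, 12.3 and 12.2 in BCP rats, without overlap.

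Of 14 other connexins, 8 passed the filter, and 4 of those were lower in BCP rats with a median log2 fold change of -0.44 over the 8. Among them was Gjb2, connexin 26 of astrocytes and leptomeninges, which fell by 0.50 on the log2 scale (SE 0.17, edgeR adjusted p = 0.0359). Of connexins made mainly by oligodendrocytes and their lineage, Gjc3 fell by 0.48 (adjusted p = 0.00774) and Gjb1 by 0.42 (adjusted p = 0.000321). Gjb2, at no more than 7.75 CPM, passed in 5 of 12 alternative fits, missing the threshold without sham library 1 or 2 and without BCP library 1 or 3. All 6 oligodendrocyte markers tested were lower as well, with a median of -0.41, Mbp, the myelin basic protein, falling by 0.56 (adjusted p = 0.0062). Their summed level was 38260 to 43490 CPM in sham rats and 27380 to 30560 CPM in BCP rats, and its part in the connexin values was not tested.

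Aqp4 (ENSRNOG00000016043, chromosome 18, 6765945 to 6782996) encodes aquaporin 4, the water channel of astrocyte endfeet. The counts were 4637, 5427 and 5240 in sham rats and 28568, 5037 and 4775 in BCP rats, equal to 353, 379 and 354 CPM in sham rats and 2413, 360 and 361 CPM in BCP rats. Thus 5 libraries lay at 361 ± 10.3 CPM (SD, n = 5), and BCP library 1 was at 6.68 times their mean. With all libraries the log2 fold change was 1.53 with an SE of 0.95 and a 95% interval from -1.07 to 4.12. Without BCP library 1 it was 0.0016. This value in BCP library 1 was known when Aqp4 was chosen, so its place among other genes is a description. Among 11969 genes with a mean of at least 5 CPM, 3 genes were higher and 32 were lower in 1 library than in all others by more than 1 log2 unit and by more than the range of the other 5. Aqp4 was 1 of the 3, with a gap of 2.67 log2 units, and BCP library 1 held 2 of them. Slc1a3 was 1 of the 32, with a gap of 1.35 log2 units, which ranked 20. Of these 32 genes 26 were low in sham library 3 and 2 in sham library 1.

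Kcnj10 and Dag1, whose proteins accompany Aqp4 at the endfoot, showed no such departure in BCP library 1. Kcnj10, the potassium channel Kir4.1, measured 208, 217 and 190 CPM in sham rats and 147, 149 and 161 CPM in BCP rats, and fell by 0.43 on the log2 scale (SE 0.05, edgeR adjusted p = 5.21e-06). Dag1, the dystroglycan of the endfoot membrane, stood at 208 CPM in BCP library 1 and between 211 and 233 CPM in the other 5 libraries. Of the 11 listed partners 9 were tested, 2 were lower and the median log2 fold change was -0.11.

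**Figure D3:**
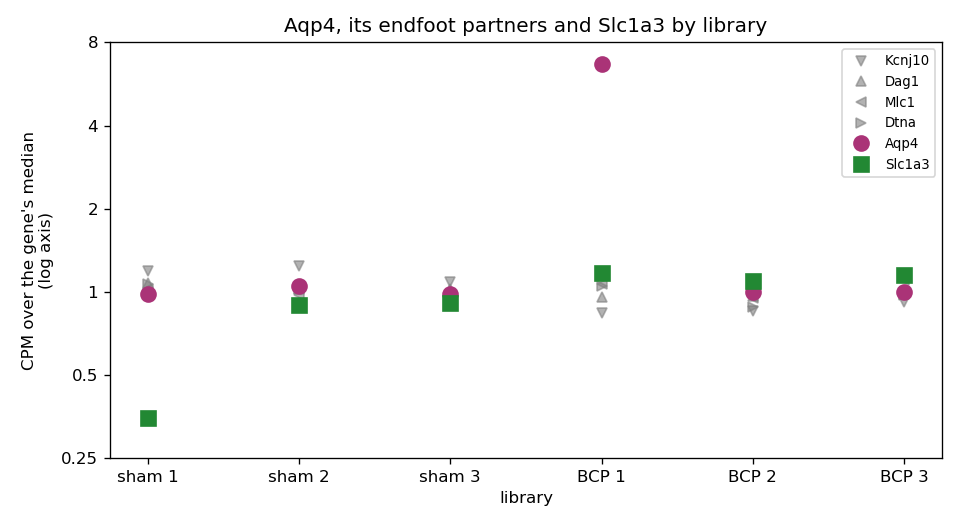
Each symbol is the CPM of 1 gene in 1 library divided by the gene's median over the 6 libraries, on a log axis. Aqp4 stands far above 1 in BCP library 1 and Slc1a3 below 0.5 in sham library 1, while the endfoot partners shown stay near 1 in all libraries.

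The genes with patterns most like that of Aqp4 over the 6 libraries, by the root mean square difference of centred log2 CPM, were Col1a1 at 0.49 and Elk4 at 0.54, followed by Btg2, Tmem51 and Nek3 at 0.74 to 0.80. Col1a1, a fibrillar collagen of fibroblasts and meninges, measured 19.1, 27.2 and 32.7 CPM in sham rats and 84.1, 33.0 and 26.5 CPM in BCP rats. Elk4, a transcription factor, was at 57.3 CPM in sham library 2 and 104 CPM in BCP library 1, and between 23.2 and 27.1 CPM in the other 4 libraries. Of the other meningeal and fibroblast markers, Col3a1 and Dcn were not highest in BCP library 1, Lum was at 4.22 CPM there and at 2.21 to 4.18 CPM elsewhere, and Col1a2 had no counts in any library. The summed level of the 6 markers was 78.9 to 123 CPM in sham rats and 81.0 to 142 CPM in BCP rats, the latter maximum in BCP library 1, and its part in the Aqp4 value was not tested. Of these markers 5 were tested and 1 was lower, Igf2 (log2 fold change -0.94, SE 0.12, edgeR adjusted p = 8.66e-05).

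Lcn2 (ENSRNOG00000013973, chromosome 3, 11414186 to 11417546) encodes lipocalin 2, an iron-siderophore binding protein secreted by reactive astrocytes and by neutrophils. It was the member with the fewest reads, with counts of 38, 47 and 11 in sham rats and 115, 98 and 68 in BCP rats, or 2.90, 3.28 and 0.743 CPM against 9.71, 7.00 and 5.14 CPM. The groups did not overlap, sham library 3 was the lowest, and the log2 fold change was 1.66 (SE 0.49) with all libraries and 1.23 without sham library 3. Lcn2 did not pass with all libraries (edgeR adjusted p = 0.0532) and passed in 4 of 12 alternative fits. Of 7 neutrophil markers 1 passed the filter, S100a8, with counts of 1, 0 and 0 in sham rats and 23, 15 and 10 in BCP rats. It passed through its BCP counts alone, at no more than 1.94 CPM. Its direction was thus set in advance, and nothing is read from its call. The markers of neutrophils summed to between 0.152 and 0.81 CPM in sham rats and between 2.57 and 6.33 CPM in BCP rats, and both this sum and Lcn2 were highest in BCP library 1. In sham library 3, where Lcn2 was lowest, the neutrophil sum was the highest of the sham libraries, at 0.152, 0.349 and 0.81 CPM. The part of neutrophils in the Lcn2 value was not tested.

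Cd44 (ENSRNOG00000006094, chromosome 3, 92696313 to 92783658) encodes the receptor for hyaluronan and osteopontin, found on fibrous and reactive astrocytes and on leukocytes. It measured 48.7, 46.1 and 41.7 CPM in sham rats and 83.7, 98.5 and 103 CPM in BCP rats. The groups did not overlap, and the log2 fold change was 1.07 (SE 0.08), or 2.10-fold. Of 12 ligands, receptors and partners of Cd44 and Lcn2, 10 were tested, of which 4 were higher and 2 lower, with a median of 0.11. The actin linkers of Cd44, Ezr and Msn, rose by 1.47 (SE 0.11, edgeR adjusted p = 1.61e-07) and 1.01 (SE 0.07, adjusted p = 9.9e-07) on the log2 scale. Hmmr, another hyaluronan receptor, rose by 0.88 (adjusted p = 0.00123) and Has2, a hyaluronan synthase, by 0.84 (adjusted p = 0.00637). Slc22a17, a receptor for Lcn2, fell by 0.27 (adjusted p = 0.00016), as did Lrp2 by 0.25 (adjusted p = 0.0137). Spp1, the ligand osteopontin, did not pass, at 249, 267 and 242 CPM in sham rats and 220, 347 and 239 CPM in BCP rats.

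On the FPKM scale, the order of the members in sham rats was Gfap (857 ± 58.0, SD, n = 3), Slc1a2 (725 ± 9.83), Gja1 (174 ± 8.12), Aqp4 (46.0 ± 1.97), Vim (31.3 ± 3.64), Slc1a3 (30.3 ± 13.5), Gjb6 (21.3 ± 1.31), Cd44 (9.13 ± 0.694) and Lcn2 (2.56 ± 1.52). Slc1a3 overlapped both of its neighbours in this order, Vim and Gjb6. In BCP rats Cd44 (19.7 ± 2.27) overtook Gjb6 (15.4 ± 1.82), although their ranges overlapped, and Aqp4 overlapped Gja1, Vim and Slc1a3 with its spread (136 ± 153). Gfap ranked 25 among all 30957 genes by mean FPKM in sham rats and 14 in BCP rats, whereas Slc1a2 ranked 35 and 45. The FPKM ratio of Gfap to Slc1a2 was between 1.08 and 1.24 in sham rats and between 2.32 and 3.02 in BCP rats. The place of Slc1a2 in the order, its ranks and this ratio rest on a length of 882 bp for its row, against 2688 bp for Gfap. These values and the CPM that follow hold for that row, which may not cover the whole gene. In mean CPM, Gfap was at 2336 and Slc1a2 at 649 in sham rats, and at 4071 and 502 in BCP rats.

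Slc1a2 and Cd44 were neighbours on chromosome 3, with 30668 bp, no other gene and 1 lncRNA between their deposited rows, and their values moved in opposite directions. That lncRNA, NONRATT018400.2, is 4377 bp long and begins 4678 bp past the end of the Slc1a2 row. Its counts were 30046, 30065 and 33678 in sham rats and 21591, 23800 and 23324 in BCP rats. It fell by 0.30 on the log2 scale (SE 0.03, edgeR adjusted p = 0.00321) and passed in 12 of 12 alternative fits. NONRATT018399.2, which overlaps the end of Slc1a2, had counts of 1482, 1436 and 1590 in sham rats and 1029, 1105 and 1086 in BCP rats and fell by 0.34 (SE 0.06, adjusted p = 0.0224), but it missed the threshold whenever 1 library was left out, with adjusted p from 0.0529 to 0.103, and also with the replicate number as a block and without sham library 1 and BCP library 1 together. NONRATT018398.2, inside Slc1a2, had 29 to 34 counts in sham rats and 28 to 33 in BCP rats. NONRATT019513.2, inside Cd44, did not pass (log2 fold change 1.02, SE 0.28, adjusted p = 0.145). Whether NONRATT018400.2 and Slc1a2 are parts of 1 transcript was not tested.

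**Figure D4:**
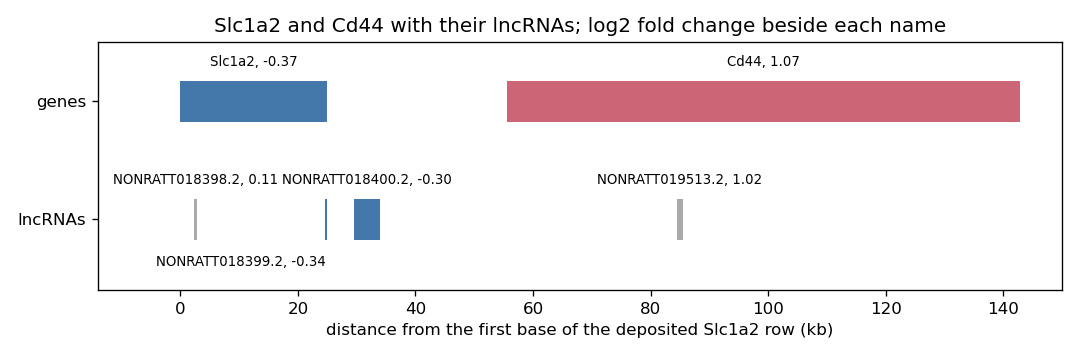
Boxes give the positions of Slc1a2, Cd44 and the lncRNAs near them as the distance from the first base of the Slc1a2 row in kb, with the log2 fold change (BCP over sham) beside each name. Red marks higher and blue lower in BCP rats past an adjusted p of 0.05, and grey marks lncRNAs that did not pass. Slc1a2 and NONRATT018400.2 lie next to each other with values of -0.37 and -0.30, and Cd44 follows with 1.07.

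In total 18 lncRNA transcripts lay within 10 kb of a member, of which 11 overlapped one and 13 passed the filter. By edgeR's quasi-likelihood test over 12157 lncRNAs, 2 of the 13 were higher in BCP rats, where 1.57% of all lncRNAs were, and 2 were lower, where 0.395% were. All of them lie at or near Gfap or Slc1a2, which were chosen with their counts known, so nothing is read from these shares. The higher ones were NONRATT006110.2 (log2 fold change 0.76, SE 0.10, adjusted p = 0.0112) and NONRATT006111.2 (0.66, SE 0.09, adjusted p = 0.0117), both of which overlap Gfap. With 1 library left out, the former lost the call without sham library 2 or 3 and the latter without sham library 2 or BCP library 3. Both also lost it with the replicate number as a block, and the latter without sham library 1 and BCP library 1 together. The third transcript overlapping Gfap, NONRATT006109.2, did not pass (0.65, adjusted p = 0.0702). The use of strand in counting is not given in the sources used here, so reads of these transcripts cannot be told apart from those of the gene they overlap. NONRATT016170.2 inside Slc1a3 (1.02, adjusted p = 0.438), NONRATT010938.2 inside Gjb6 (0.15, adjusted p = 0.888) and NONRATT012637.2 inside Vim (0.075, adjusted p = 0.962) did not pass, nor did NONRATT006108.2 near Gfap (0.18, adjusted p = 0.864) and NONRATT018045.2 and NONRATT019183.2 near Lcn2 (-0.40 and -0.36, adjusted p = 0.706 and 0.236). No lncRNA of the table lay within 10 kb of Aqp4 or Gja1.

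Further genes of the reactive state were read from lists that hold none of the members. All lists given here were written with earlier results of these data known, so their counts are a description. Among all genes tested, 15.8% were called higher and 12.1% lower. Of 8 further pan-reactive genes, all tested, 7 rose, with a median log2 fold change of 1.25. Cxcl10, a chemokine, rose by 3.28 (SE 0.73, edgeR adjusted p = 0.0383), Timp1, a protease inhibitor, by 2.12 (adjusted p = 6.03e-06), Cp, the copper carrier ceruloplasmin, by 1.90 (adjusted p = 9.55e-13) and Aspg by 1.45 (adjusted p = 0.00622). Cxcl10 varied widely among sham rats, at 34.2, 18.0 and 3.24 CPM, and passed in 6 of 12 alternative fits, missing the threshold without sham library 2 and without any 1 of the BCP libraries. The count fell to 4 of 8 without sham library 1 and BCP library 1, a check chosen after seeing the data, in which Cxcl10 and Aspg were among those lost. The summed level of the list was 103 to 152 CPM in sham rats and 389 to 486 CPM in BCP rats.

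Of the 10 genes of the A1 state, described after inflammatory stimuli, 9 had a row and were tested, and 5 rose and 1 fell, with a median of 2.12. The complement genes Serping1, from 21.6, 17.4 and 13.6 CPM to 132, 155 and 159 CPM (log2 fold change 3.09, SE 0.18, edgeR adjusted p = 0.000161), and C3 (2.94, SE 0.11, adjusted p = 5.87e-06) led this list. Ggta1, a glycosyltransferase, rose by 2.15 (adjusted p = 4.46e-10) and Psmb8, an immunoproteasome subunit, by 2.12 (adjusted p = 0.0126), but Psmb8 lost the call without BCP library 2, without BCP library 3 and without sham library 1 and BCP library 1 together. Gbp2 was at 118, 61.8 and 17.3 CPM in sham rats and 295, 421 and 387 CPM in BCP rats, and did not pass (adjusted p = 0.0768). Of the 12 genes of the A2 state, described after ischemia, 10 were tested and 5 rose, with a median of 0.54. These included Ptx3, a pentraxin (1.89, SE 0.43, adjusted p = 0.00278), Slc10a6 (1.79, SE 0.40, adjusted p = 0.00196), Cd14, a receptor for endotoxin (1.60, SE 0.25, adjusted p = 5.82e-05) and Ptgs2, cyclooxygenase 2 (1.38, SE 0.15, adjusted p = 6.91e-07). Slc10a6 had at most 6 counts in any sham library and passed the filter through its BCP counts, so its direction was set in advance. Many genes of both lists are also made by microglia and leukocytes.

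Genes of astrocyte identity and metabolism were lower for the larger part. Of 23 tested, 15 fell and 1 rose, with a median of -0.27, and the summed level was 16960 to 17630 CPM in sham rats and 13750 to 15180 CPM in BCP rats. The gene that rose was Fabp7, given above. Slc7a10, an exchanger of serine and glycine, fell by 0.58 (SE 0.06, edgeR adjusted p = 9.77e-07), Slc25a18, a mitochondrial glutamate carrier, by 0.53 (SE 0.12, adjusted p = 0.00566) and Slc4a4, a bicarbonate transporter, by 0.44 (SE 0.05, adjusted p = 1.67e-06). Sox9, a transcription factor of astrocytes, did not pass (0.063, adjusted p = 0.598). Between 13 and 15 of the list were lower when any 1 library was left out.

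A list of 20 genes held inducers of astrocyte reactivity, their receptors and the downstream genes Stat3 and Socs3. Of these, 16 were tested, and 12 rose, Stat3 and Socs3 among them, and 1 fell, with a median of 1.10. Tnf was at 0.27 to 0.419 CPM in sham rats and 2.62 to 4.84 CPM in BCP rats (log2 fold change 3.53, SE 0.38, edgeR adjusted p = 5.36e-07). Tnf and Il1b had at most 6 counts in any sham library and passed the filter through their BCP counts, so their direction was set in advance. Socs3, the feedback inhibitor of the Stat3 pathway, rose by 2.93 (SE 0.30, adjusted p = 2.94e-07), C1qc, a complement subunit made by microglia, by 2.88 (SE 0.29, adjusted p = 0.00335) and Il1b by 2.80 (SE 0.39, adjusted p = 1.46e-05). Stat3, the transcription factor through which several of these signals act on Gfap, measured 159, 150 and 136 CPM in sham rats and 242, 276 and 258 CPM in BCP rats (log2 fold change 0.80, SE 0.06, adjusted p = 2.37e-08).

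**Figure D5:**
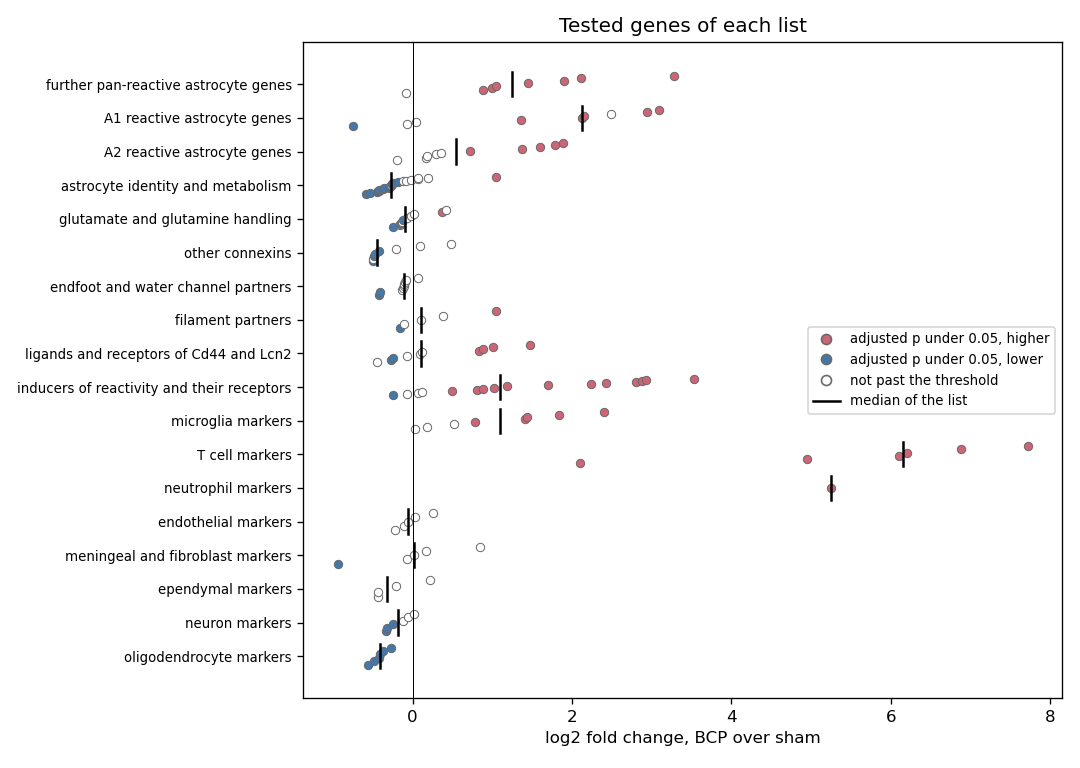
Each circle is 1 tested gene, placed by its log2 fold change, BCP over sham, in the row of its list, and the black bar is the list's median. Red and blue circles passed an adjusted p of 0.05 as higher or lower and white circles did not. The medians are 2.12 for A1 genes, 1.25 for further pan-reactive genes and -0.44 for other connexins, and the values of T cell and neutrophil genes with 0 counts in sham libraries depend on the prior count of the fit.

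Of the markers of other cell types, some differed between the groups and others did not pass. Of 8 microglia markers 5 rose, with a median of 1.10, Aif1 by 2.40 (SE 0.12, edgeR adjusted p = 2.63e-10), and their sum was 224 to 286 CPM in sham rats and 594 to 701 CPM in BCP rats. All 6 T cell markers were higher, with a summed level of 4.88 to 5.79 CPM, most of it Cd4, in sham rats and 41.3 to 44.7 CPM in BCP rats. Cd3d, Cd3e, Cd3g, Cd2 and Cd8a had at most 6 counts in any sham library. They passed the filter through their BCP counts alone, so their direction was set in advance. Cd4 alone was at 4.42, 5.65 and 5.20 CPM in sham rats and at 25.6, 20.5 and 19.7 CPM in BCP rats. Which cells carried Cd4 was not tested. Cd3e, a subunit of the T cell receptor complex, was at 0.0675 CPM in sham library 3, at 0 in the other sham libraries and at 4.73, 7.43 and 8.40 CPM in BCP rats. Of 6 neuron markers 3 fell, Rbfox3 by 0.34 (SE 0.07, adjusted p = 0.00134), with a median of -0.18 and sums of 2981 to 3119 CPM against 2755 to 2991 CPM. Of 5 endothelial markers tested, 0 passed by edgeR, 0 had an unadjusted p under 0.05 and 1 passed by DESeq2, with a median of -0.056 and sums of 353 to 366 CPM against 354 to 389 CPM. Of 4 ependymal markers tested, 0 passed by edgeR or DESeq2 and 0 had an unadjusted p under 0.05, with a median of -0.32 and sums of 7.75 to 9.25 CPM against 5.58 to 8.92 CPM. Microglia and leukocytes also express Vim, Cd44 and Lcn2, and the part of these cells in the members' values was not tested.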

How the data were processed

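RNA of 3 BCP and 3 sham libraries was analysed, grouped by the sample labels. The authors mapped reads to Rnor_6.0 with HISAT2 2.0.4 and computed expression with StringTie 1.3.0. They deposited unnormalized counts per gene and per lncRNA transcript, and the FPKM values that the authors computed stand beside the counts. The counting program and its use of strand are not given in the sources used here. Serpina3n was not analysed here.

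Counts were fitted with edgeR 4.0.16 in R 4.3.3, for genes and lncRNAs separately, with the filter by expression, TMM scaling (factors 0.978 to 1.02), a robust quasi-likelihood fit on condition and Benjamini-Hochberg adjustment over all rows tested. CPM are TMM-scaled. FPKM served for levels between genes. Replicates within a group differed by more than sampling noise (chi-square per degree of freedom 3.48 to 6.04 for genes). The code was tested on simulated data.

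The members and the 18 lists were chosen with earlier results of these data known. Named genes are the members, up to 4 called genes per list with the largest absolute log2 fold change, their partners, the 5 genes most like Aqp4 and every lncRNA tested at a member. A few of these are not reported here. Alternatives were DESeq2 1.42.0, its size factors, library size only, no filter, a replicate block, lncRNAs that overlap a member only, and each library left out. Same-numbered libraries did not deviate together (gene correlations -0.105, 0.0439 and -0.0353), so the numbers were not taken as pairs. Leaving out sham library 1 and BCP library 1 together was chosen after seeing the data. Figures were drawn with matplotlib 3.10.9.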

Additional observations from a re-analysis of the deposited data

How the results depend on the processing

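Member genes past the threshold numbered 3 or 4 in the higher and 2 in the lower direction under the alternatives run, and as the members were chosen with their counts known, nothing is read from this. The members behind these counts were not always the same. Vim missed the threshold with the replicate block (edgeR adjusted p = 0.0608), where Lcn2 passed it (adjusted p = 0.000223). With the replicate block, which the data do not show to pair the libraries, 2217 genes were higher and 1597 lower, against 2352 and 1805 without it, and among the named list genes Cxcl10, Slc38a2 and C1qc missed the threshold. Scaling by library size alone gave 2673 higher and 1262 lower genes, so that 67.9% of calls were higher against 56.6% with TMM. Genes more than 2-fold lower numbered 16, but 37 with no filter, 10 by DESeq2, 31 without sham library 1 and BCP library 1 together, and 16 to 33 with 1 library left out. The lncRNAs at members that were higher numbered 2, but 0 with the block, 1 without both libraries and 0 to 2 with 1 library left out. Those that were lower numbered 2, but 1 with the block, without both libraries, with overlapping transcripts alone and with any 1 library left out. The log2 fold change of Gja1 turned to 0.036 with library size only and ran from -0.045 to 0.029 with 1 library left out, turning to 0.010, 0.019 and 0.029 in 3 of those fits. Aqp4 turned to -0.020, NONRATT006108.2 to -0.076 and NONRATT012637.2 to -0.077 without both libraries. With 1 library left out, NONRATT012637.2 ran from -0.068 to 0.39, turning to -0.068 and -0.060 without sham library 1 or 2, and NONRATT010938.2 from -0.092, without sham library 3, to 0.32. Apart from fewer libraries in those fits, the cause was not tested. Depth limits Lcn2, with 11 to 115 counts per library.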
